A study of Homo sapiens with 8 samples.

Results

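Homologous recombination and Fanconi anaemia pathway genes were followed through depletion of DNA-PK in 4 human prostate cancer cell lines. They were chosen by name as 38 genes, and 31 of them could be measured, out of 16796 genes tested in all. Each gene was read from a probe set that carries a single gene symbol. RAD51D and RAD54B lie only on probe sets shared with another symbol, and BRCA2, XRCC2, RBBP8, FANCA and FANCD2 were not matched, so these 7 were not analysed here. All 31 measured genes have 1 probe set each and passed the filter on low signals, a mean of 2.51 on the log2 scale. The study, whose title names Wnt signalling, depleted DNA-PK with small interfering RNA (siRNA) and profiled total RNA on whole-transcript Affymetrix arrays 48 hours after transfection. C4-2B, DU145, PC3 and VCaP each gave 1 array with DNAPK siRNA and 1 with non-targeting siRNA, which makes 8 arrays in 4 pairs. C4-2B and PC3 were grown in RPMI1640 medium, and DU145 and VCaP in DMEM. C4-2B derives from LNCaP and VCaP from a vertebral metastasis. DU145 came from a brain metastasis and PC3 from a bone metastasis. The lines are cultures of cancer cells with no second culture per treatment. Values are the authors' log2 signals after robust multi-array averaging (RMA), and each difference is DNAPK siRNA minus non-targeting siRNA. A log2 difference of 1 is a change in signal of 2-fold.

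Homologous recombination repairs broken DNA by copying an intact sister sequence. The MRE11 complex and its partners trim the broken ends, and RPA coats the bare strand. BRCA1, PALB2 and BRCA2 prepare that strand to search for its match, and RAD54 proteins assist the exchange of strands. The Fanconi pathway unhooks crosslinks between the DNA strands: a core complex with the ligase FANCL marks FANCD2 and FANCI with ubiquitin, and nucleases held by SLX4 then cut. Many of these genes are transcribed mostly in S and G2 phase, when a sister copy is present. DNA-PK acts in the competing pathway, non-homologous end joining, and PRKDC encodes its catalytic subunit. In prostate cancer the recombination genes are known for inherited and acquired mutations that sensitise tumours to PARP inhibitors.

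PRKDC read 6.76 in C4-2B and 8.08 in DU145, with 7.17 in PC3 and 9.18 in VCaP with DNAPK siRNA, against 9.29, 9.17, 9.17 and 9.80 in the same lines with non-targeting siRNA. It was lower with DNAPK siRNA in 4 of 4 lines, and the remaining signal was 17.4% in C4-2B and 47.2% in DU145, with 25.1% in PC3 and 65.0% in VCaP. Over the lines the mean difference was -1.56 ± 0.86 (SD, n = 4 lines), which did not pass after adjustment over all genes (limma, adjusted p = 0.688). Line markers followed the labels for ERG, which read 8.65 and 8.57 on the VCaP arrays and at most 3.56 on the others. VIM read at least 7.22 in DU145 and PC3 and at most 4.29 in C4-2B and VCaP. TMPRSS2, a protease gene of luminal prostate cells, separated the lines less: with DNAPK siRNA it read 9.46 in C4-2B and 3.37 in DU145, with 7.17 in PC3 and 8.68 in VCaP, against 9.56, 2.18, 6.72 and 9.03 in the same lines with non-targeting siRNA. KLK3, the gene of PSA, read 10.24 and 10.12 in C4-2B but 4.75 and 4.46 in VCaP, low for a line known to express it. Of the immune and stromal markers, PTPRC, CD3E, CD14 and LYZ lay below the filter, and CD68, CDH5 and COL1A1 passed it. The medians of the arrays over all probe sets lay between 2.94 and 2.99.

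The sequence before the transcription start of several members carries a motif of E2F, the factor family that drives S-phase genes. Windows of 300 bases around the start (RefSeq, GRCh38.p14) were searched on both strands for TTCCCGC or TTCGCGC and for TTGCCGC or TTGGCGC, which are E2F-like letters. Of the 41 windows of the 32 members in that table, 24 (58.5%) held a match, against 12.97% of all 35116 windows. CCAAT, the letters bound by NF-Y, stood in 34.1% of the members' windows and 34.6% of all windows. TTTGAA or TTCGAA, letters of the cell cycle element CHR, stood in 7.32% of the members' windows and 16.4% of all windows. Each E2F-like motif holds the letters CG, and the CHR letters are mostly A and T. The windows were not matched for base composition, and its part in these shares was not tested. The 4 sequences below belong to the members with the highest DU145 differences that have an E2F match before the start. They show the 120 bases that end at the base before the start, 5′ to 3′ on the strand of the gene, with the match in capitals (on either strand).
RAD54L, + strand, chr1:46247568-46247687: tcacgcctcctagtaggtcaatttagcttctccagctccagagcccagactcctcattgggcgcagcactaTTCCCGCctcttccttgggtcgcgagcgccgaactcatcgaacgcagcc
EME1, + strand, chr17:50373109-50373228: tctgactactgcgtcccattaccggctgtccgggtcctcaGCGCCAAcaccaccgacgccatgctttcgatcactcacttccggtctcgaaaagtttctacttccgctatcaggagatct
RAD51AP1, + strand, chr12:4538770-4538889: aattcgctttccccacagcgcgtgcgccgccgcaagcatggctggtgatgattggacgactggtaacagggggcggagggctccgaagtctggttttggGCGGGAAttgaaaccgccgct
BRCA1, - strand, chr17:43125365-43125484: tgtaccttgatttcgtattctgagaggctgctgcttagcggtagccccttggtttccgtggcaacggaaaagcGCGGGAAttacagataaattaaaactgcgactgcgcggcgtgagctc
Each stretch holds 1 match. Relative to the start, the match begins at base -49 in RAD54L, -80 in EME1, -21 in RAD51AP1 and -47 in BRCA1. A match describes the letters and is not evidence that E2F binds there.

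The lines differed in their standing level of these genes. With the treatment as a covariate, the limma F-test over the 4 lines called 20 of 31 members (64.5%) at an adjusted p under 0.05, against 62.6% of all genes, so the members were called about as often as genes at large. The spread in that test is the one left between the arrays of a line, which differ in siRNA and are not repeat cultures. Each line was also set against the mean of the other 3 lines by limma contrasts, called at an adjusted p under 0.05. PC3 had the most members called below that mean, 9 of 31 (29.0%, against 18.1% of all genes), and 3 called above it (9.68%, against 18.6%). VCaP had 9 called above (29.0%, against 20.4%) and 4 called below (12.9%, against 23.4%). C4-2B had 7 called above (22.6%, against 17.8%) and 3 called below (9.68%, against 18.8%). DU145 had 2 called above (6.45%, against 18.2%) and 6 called below (19.4%, against 18.3%). A member could be called in such a contrast without passing the F-test, as BARD1 was in PC3.

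FANCF and FANCL had the widest ranges of line means among the 31 members, and RAD50 the third. FANCF, an adaptor that holds the core complex together, read 7.18 in C4-2B and 4.59 in DU145, with 4.88 in PC3 and 6.003 in VCaP with DNAPK siRNA, against 7.18, 4.67, 4.999 and 6.09 in the same lines with non-targeting siRNA. No array of one line overlapped another line, with C4-2B highest, then VCaP, PC3 and DU145, and the line means spanned 2.55 (limma F-test, adjusted p = 2.48e-05). Without C4-2B they spanned 1.41 (adjusted p = 0.00175). FANCL, the ubiquitin ligase of the complex, had nearly the opposite order. It read 5.46 in C4-2B and 7.25 in DU145, with 6.19 in PC3 and 6.97 in VCaP with DNAPK siRNA, against 5.16, 7.52, 6.35 and 6.68 in the same lines with non-targeting siRNA. Its line means ran from 5.31 in C4-2B through 6.27 in PC3 and 6.82 in VCaP to 7.39 in DU145, and no array of one line overlapped another line (adjusted p = 3.88e-04). The FANCL means spanned 2.07, or 1.12 without C4-2B (adjusted p = 0.0124). FANCB, an X-linked core subunit, read 5.72 in C4-2B and 5.43 in DU145, with 6.39 in PC3 and 6.79 in VCaP with DNAPK siRNA, against 5.87, 5.22, 6.52 and 6.87 in the same lines with non-targeting siRNA. Its 4 lines did not overlap either, with VCaP highest and DU145 lowest (adjusted p = 6.24e-04).

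RAD50, the ATPase of the MRE11 complex, read 8.93 in C4-2B and 9.22 in DU145, with 7.59 in PC3 and 9.13 in VCaP with DNAPK siRNA, against 8.90, 9.01, 7.46 and 9.72 in the same lines with non-targeting siRNA. Both PC3 arrays stood below every other array, with PC3 minus the mean of the other 3 lines at -1.62, and the F-test passed (adjusted p = 8.04e-04). Without PC3 the RAD50 line means spanned 0.51 and the test did not pass (adjusted p = 0.221). BRCA1, a ubiquitin ligase that promotes resection, read 6.77 in C4-2B and 7.04 in DU145, with 5.76 in PC3 and 7.21 in VCaP with DNAPK siRNA, against 6.94, 6.37, 5.91 and 7.08 in the same lines with non-targeting siRNA. Here too PC3 was lowest with no overlap, at a mean of 5.84 against 7.14 in VCaP, the highest line (adjusted p = 0.00745, or 0.309 without PC3). The helicase gene BLM read 5.99 in C4-2B and 6.80 in DU145, with 6.04 in PC3 and 7.21 in VCaP with DNAPK siRNA, against 6.06, 6.27, 6.28 and 7.51 in the same lines with non-targeting siRNA. VCaP was highest with no overlap (adjusted p = 0.00483, or 0.159 without VCaP).

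SLX4, the scaffold of the structure-specific nucleases, read 5.14 in C4-2B and 5.34 in DU145, with 4.83 in PC3 and 3.71 in VCaP with DNAPK siRNA, against 4.90, 4.74, 4.24 and 3.67 in the same lines with non-targeting siRNA. VCaP was lowest with no overlap, and VCaP minus the mean of the other lines was -1.18 (limma contrast, adjusted p = 7.94e-04). The limma F-test over the lines gave an adjusted p of 0.00171, or 0.0505 without VCaP. RAD54L, a DNA translocase that acts in strand invasion, read 6.55 in C4-2B and 5.67 in DU145, with 5.81 in PC3 and 6.11 in VCaP with DNAPK siRNA, against 6.15, 4.79, 6.12 and 5.82 in the same lines with non-targeting siRNA. Its lowest line mean was 5.23 in DU145 and its highest 6.35 in C4-2B (adjusted p = 0.0331). Without C4-2B the adjusted p was 0.108 and without DU145 it was 0.268. The F-test did not pass for BARD1, BRIP1, EXO1, FANCE, FANCM, MRE11, MUS81, RPA2, RPA3, WRN and XRCC3, with adjusted p between 0.0522 and 0.686.

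**Figure D1:**
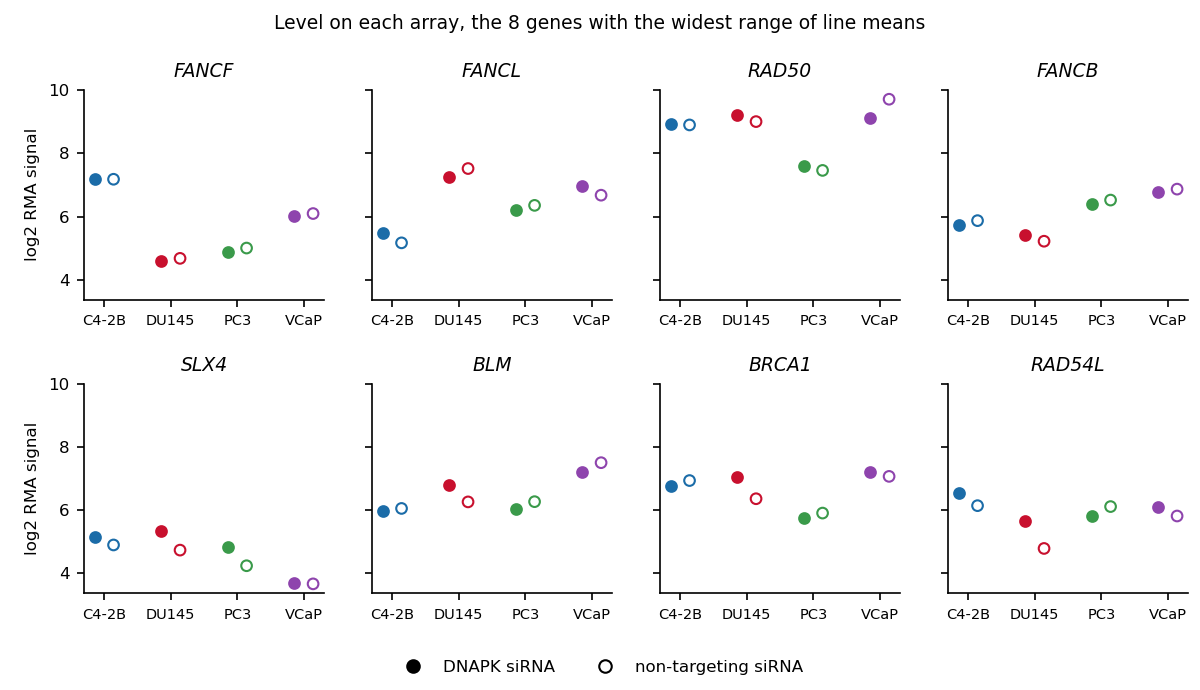
Log2 RMA signal (vertical axis) of the 8 genes with the widest range of line means, in each of 4 lines (horizontal axis, one colour per line). Filled circles are arrays with DNAPK siRNA and open circles arrays with non-targeting siRNA, 1 of each per line. FANCF stands highest in C4-2B and FANCL lowest there, RAD50 and BRCA1 are lowest in PC3, SLX4 is lowest in VCaP, and in most panels the arrays of a line lie close together.

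Over the 4 lines, the response to DNAPK siRNA passed the test in 0 of 31 members. The limma fit with the line as a block called 0 of 16796 genes (0% of all genes) at an adjusted p under 0.05. At an unadjusted p under 0.05, 2 members (6.45%) stood against 7.19% of all genes. Both were higher (against 4.2% of all genes), and 0 were lower (against 2.99%). The median of the members' mean differences was 0.040, with 17 of 31 above 0 (54.8%, against 56.4% of all genes), and the median over all genes was 0.027. Leaving out DU145 turned the members' median to -0.070. In 4 members the difference was above 0 in 4 of 4 lines (12.9%, against 11.5% of all genes) and in 1 it was below 0 in 4 of 4 lines (3.23%, against 5.89%). With cyclic loess scaling 3 members remained above 0 in every line, because RPA2 in PC3 turned to -0.038.

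The 2 members with an unadjusted p under 0.05 were RPA2 and SLX4. RPA2, the middle subunit of the trimer that coats bare DNA strands, read 6.53 in C4-2B and 6.44 in DU145, with 6.29 in PC3 and 6.48 in VCaP with DNAPK siRNA, against 6.23, 5.89, 6.29 and 5.86 in the same lines with non-targeting siRNA. Its differences were 0.29 in C4-2B and 0.55 in DU145, with 0.0076 in PC3 and 0.62 in VCaP, with a mean of 0.37 ± 0.28 (SD, n = 4 lines, limma adjusted p = 0.688). SLX4, whose levels stand above, had differences of 0.24 in C4-2B and 0.60 in DU145, with 0.59 in PC3 and 0.043 in VCaP, with a mean of 0.37 ± 0.27 (SD, limma adjusted p = 0.688). In both genes every line was higher with DNAPK siRNA, but PC3 was nearly level for RPA2 and VCaP for SLX4.

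RPA1, the large subunit of the same trimer, read 8.90 in C4-2B and 8.83 in DU145, with 8.10 in PC3 and 8.89 in VCaP with DNAPK siRNA, against 8.85, 8.58, 7.98 and 8.11 in the same lines with non-targeting siRNA. Its mean difference of 0.30 ± 0.33 rested mostly on VCaP, where it was 0.78, and was 0.14 without that line (limma, adjusted p = 0.689 with all 4 lines). RPA3, the small subunit, did not follow, with differences of 0.16 in C4-2B and 0.16 in DU145, with -0.33 in PC3 and -0.55 in VCaP. In VCaP the large and middle subunits lay above 0 and the small one below it. FANCE, which brings FANCD2 to the core complex, read 3.96 in C4-2B and 4.01 in DU145, with 3.79 in PC3 and 4.14 in VCaP with DNAPK siRNA, against 3.92, 3.88, 3.62 and 3.96 in the same lines with non-targeting siRNA. It was higher by 0.036 to 0.18 (mean 0.13 ± 0.067, adjusted p = 0.770). FANCF was lower by small amounts in 4 of 4 lines, with differences of -0.0055 in C4-2B and -0.078 in DU145, with -0.12 in PC3 and -0.091 in VCaP (mean -0.072 ± 0.047, adjusted p = 0.876).

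**Figure D2:**
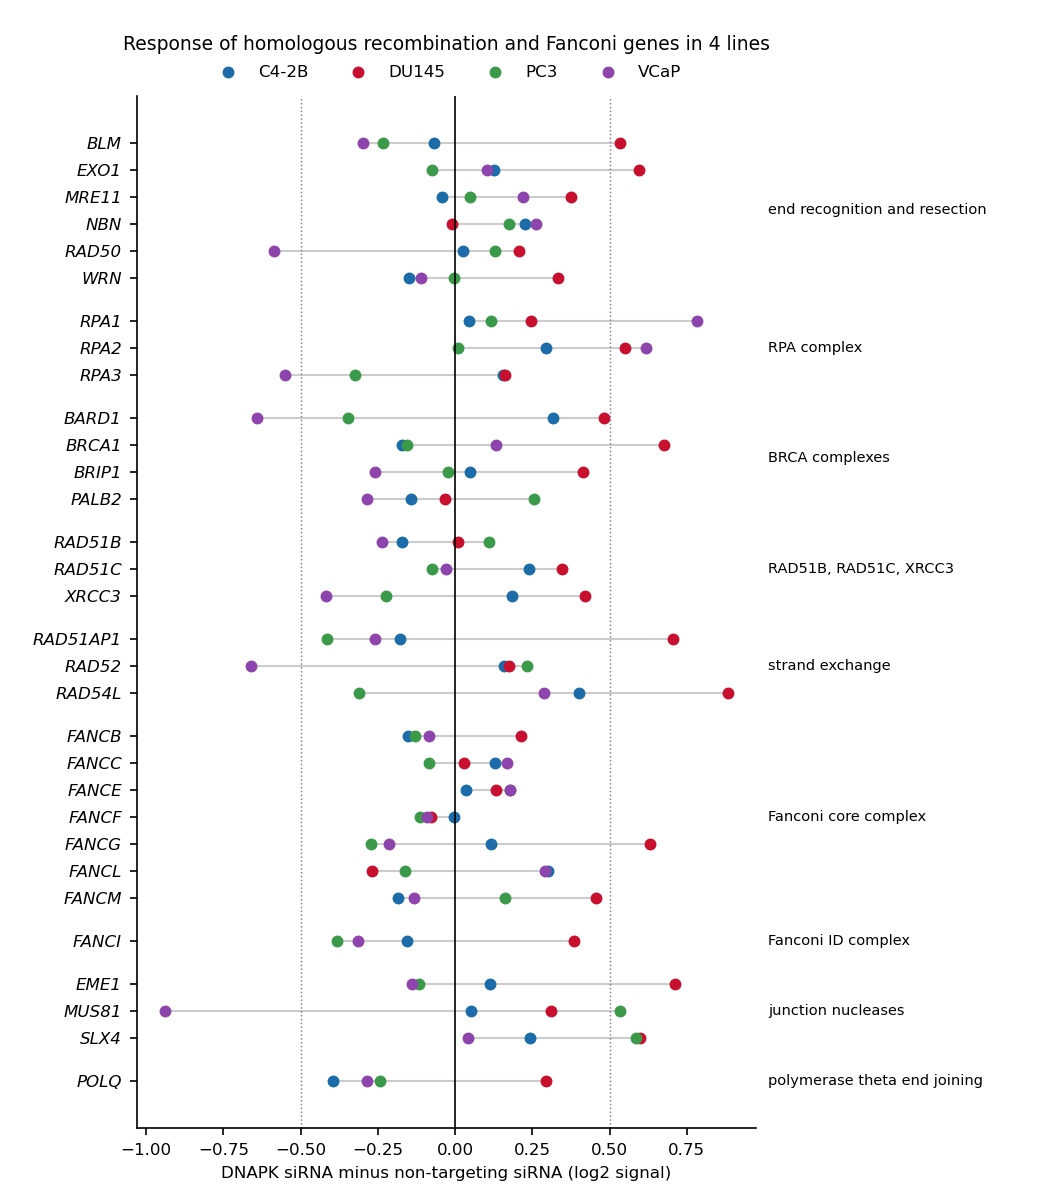
DNAPK siRNA minus non-targeting siRNA (horizontal axis, log2 signal) for each of the 31 measured genes (rows, grouped by role), with 1 point per line and a grey bar from the lowest to the highest line. Dotted lines mark -0.5 and 0.5. The DU145 points lie furthest right in 20 of 31 rows, and the lowest point of all is MUS81 in VCaP at -0.94.

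Within single lines the members were spread in different ways. There is 1 array per treatment in a line, so these values have no test and no replicate check, and ordinary variation between dishes cannot be told apart from the siRNA. In DU145, 27 of 31 members were higher with DNAPK siRNA (87.1%, against 56.9% of all genes), with a median of 0.35 against 0.045 over all genes. Past 0.5 on the log2 scale lay 9 members (29.0%, against 5.89% of all genes), and 0 lay past -0.5 (against 5.55%). Of the 4 lines, DU145 had the highest difference in 20 of 31 members (64.5%, against 26.3% of all genes).

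The DU145 group spanned most steps of recombination. RAD54L led with 0.88, from the levels given above, at 5.67 with DNAPK siRNA against 4.79 with non-targeting siRNA. EME1, the partner of the nuclease MUS81, read 6.57 in C4-2B and 6.09 in DU145, with 5.70 in PC3 and 6.20 in VCaP with DNAPK siRNA, against 6.46, 5.38, 5.82 and 6.34 in the same lines with non-targeting siRNA, a DU145 difference of 0.71. RAD51AP1, which stimulates strand exchange, read 6.89 in C4-2B and 6.56 in DU145, with 5.85 in PC3 and 7.02 in VCaP with DNAPK siRNA, against 7.07, 5.85, 6.27 and 7.28 in the same lines with non-targeting siRNA. It was higher by 0.71 in DU145 and below 0 in the other 3 lines. BRCA1 was higher by 0.68 in DU145, at 7.04 against 6.37. FANCG of the core complex (0.63), SLX4 (0.60), the resection nuclease EXO1 (0.59), RPA2 (0.55) and BLM (0.53) completed those past 0.5. The 4 members not above 0 in DU145 were FANCL at -0.27, FANCF at -0.078, PALB2, the bridge between BRCA1 and BRCA2, at -0.031, and NBN, the third MRE11 complex subunit, at -0.0099. Members above 0 in DU145 numbered 26 with median centring, where RAD51B turned below 0, and 25 with cyclic loess, where RAD51B and FANCC (-0.022) did.

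In PC3 the members leaned the other way, with 12 of 31 above 0 (38.7%, against 55.5% of all genes) and a median of -0.074 against 0.037 over all genes. The size was smaller: 2 members lay past 0.5 (6.45%, against 6.08% of all genes) and 0 past -0.5 (against 5.22%). The lowest were RAD51AP1 (-0.42), FANCI (-0.38) and BARD1 (-0.35). FANCI, the partner of FANCD2 in the clamp that receives ubiquitin, read 8.36 in C4-2B and 8.04 in DU145, with 7.16 in PC3 and 8.15 in VCaP with DNAPK siRNA, against 8.52, 7.66, 7.54 and 8.46 in the same lines with non-targeting siRNA. BARD1, the partner of BRCA1 in its ligase, read 7.46 in C4-2B and 6.96 in DU145, with 6.21 in PC3 and 6.95 in VCaP with DNAPK siRNA, against 7.14, 6.47, 6.56 and 7.59 in the same lines with non-targeting siRNA. SLX4 (0.59), MUS81 (0.53) and PALB2 (0.25) were the highest in PC3. Both DU145 and PC3 were measured for the same genes, and 17 of 31 members were higher in DU145 and lower in PC3 (54.8%, against 24.4% of all genes).

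VCaP held the widest member differences. It had 11 of 31 members above 0 (35.5%, against 49.7% of all genes) and a median of -0.13 against -0.0032 over all genes. Past -0.5 lay 5 members (16.1%, against 12.8% of all genes) and past 0.5 lay 2 (6.45%, against 10.5%), shares near or under those of all genes. MUS81, a nuclease that cuts joined DNA molecules, read 5.23 in C4-2B and 5.70 in DU145, with 5.55 in PC3 and 5.31 in VCaP with DNAPK siRNA, against 5.18, 5.39, 5.02 and 6.25 in the same lines with non-targeting siRNA. In VCaP it stood at 5.31 with DNAPK siRNA, against 6.25 with non-targeting siRNA, while the other lines had differences from 0.051 to 0.53. RAD52, which anneals strands, read 4.91 in C4-2B and 4.39 in DU145, with 4.88 in PC3 and 5.05 in VCaP with DNAPK siRNA, against 4.76, 4.21, 4.64 and 5.71 in the same lines with non-targeting siRNA. VCaP stood apart at -0.66, against 0.16 to 0.23 in the other lines. BARD1 (-0.64), RAD50 (-0.59) and RPA3 (-0.55) were the other members past -0.5, and RPA1 (0.78) and RPA2 (0.62) those past 0.5. FANCL came next at 0.29. Past 1 lay 0 of 31 members in any line and either direction. Of all genes, the share higher past 1 was 0.244% in C4-2B, 0.304% in DU145, 0.53% in PC3 or 1.29% in VCaP, and the share lower was 0.339% in C4-2B, 0.816% in DU145, 0.542% in PC3 or 2.42% in VCaP.

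C4-2B, where PRKDC was lowest relative to its control, had 0 members past 0.5 in either direction (against 4.51% higher and 3.76% lower of all genes). There 19 of 31 members were above 0 (61.3%, against 57.1%), and the median was 0.047 against 0.041 over all genes. The highest were RAD54L (0.40), BARD1 (0.32) and FANCL (0.30). The lowest were POLQ (-0.40), FANCM (-0.19) and RAD51AP1 (-0.18). POLQ, the polymerase of an alternative end joining route, read 7.26 in C4-2B and 6.62 in DU145, with 6.50 in PC3 and 7.06 in VCaP with DNAPK siRNA, against 7.65, 6.33, 6.75 and 7.35 in the same lines with non-targeting siRNA. It was below 0 in C4-2B, PC3 and VCaP and at 0.30 in DU145.

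**Figure D3:**
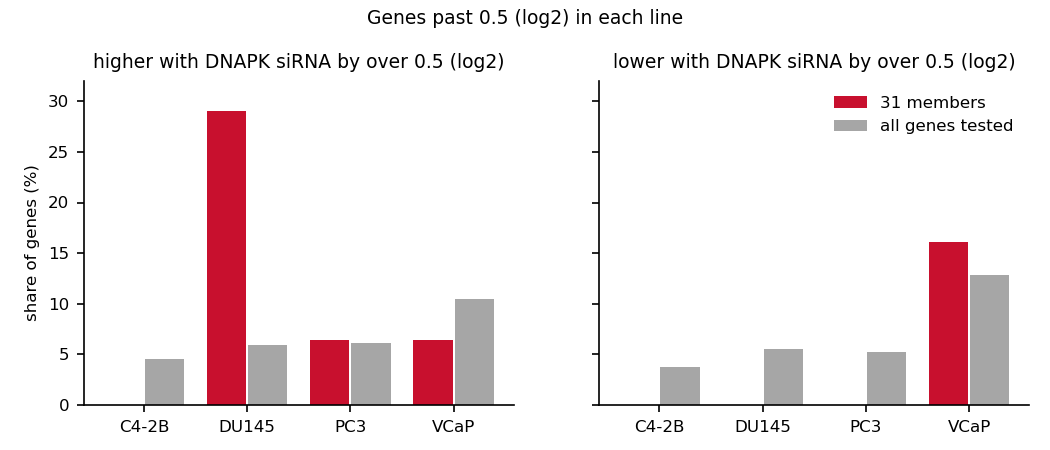
Share of genes (vertical axis, %) with a difference past 0.5 on the log2 scale in each line, higher on the left panel and lower on the right, for the 31 members (red) and all 16796 genes tested (grey). In DU145 29.0% of members were higher past 0.5 against 5.89% of all genes, while the shares in PC3 and VCaP were near or below those of all genes.

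By role, the strand exchange genes had the highest DU145 median, 0.71 over RAD51AP1, RAD52 and RAD54L, and a median of -0.31 in PC3. The BRCA group of BRCA1, BARD1, BRIP1 and PALB2 had 0.45 in DU145 and -0.27 in VCaP. BRIP1, a helicase that binds BRCA1, had 0.047 in C4-2B and 0.41 in DU145, with -0.023 in PC3 and -0.26 in VCaP. RAD51B, RAD51C and XRCC3, which act together early in strand exchange, had a median of 0.35 in DU145 and -0.24 in VCaP. XRCC3 alone had 0.18 in C4-2B and 0.42 in DU145, with -0.22 in PC3 and -0.42 in VCaP, RAD51C 0.24 in C4-2B and 0.35 in DU145, with -0.074 in PC3 and -0.031 in VCaP and RAD51B -0.17 in C4-2B and 0.0079 in DU145, with 0.11 in PC3 and -0.24 in VCaP. The end recognition and resection genes had 0.35 in DU145 and between -0.0092 and 0.022 in the other lines, where the PC3 sign turned with cyclic loess (-0.016). In that group MRE11, the nuclease, had -0.044 in C4-2B and 0.37 in DU145, with 0.049 in PC3 and 0.22 in VCaP, NBN 0.23 in C4-2B and -0.0099 in DU145, with 0.18 in PC3 and 0.26 in VCaP and the helicase gene WRN -0.15 in C4-2B and 0.33 in DU145, with -0.0055 in PC3 and -0.11 in VCaP.

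The Fanconi core complex had the lowest DU145 median of the roles. Its 7 measured subunits had medians of 0.036 in C4-2B and 0.13 in DU145, with -0.12 in PC3 and -0.083 in VCaP. FANCG differed most between lines, with 0.12 in C4-2B and 0.63 in DU145, with -0.27 in PC3 and -0.21 in VCaP. FANCM, a translocase that anchors the complex on DNA, read 6.08 in C4-2B and 6.44 in DU145, with 6.85 in PC3 and 6.36 in VCaP with DNAPK siRNA, against 6.26, 5.98, 6.68 and 6.49 in the same lines with non-targeting siRNA. FANCC had 0.13 in C4-2B and 0.028 in DU145, with -0.084 in PC3 and 0.17 in VCaP and FANCB -0.15 in C4-2B and 0.21 in DU145, with -0.13 in PC3 and -0.083 in VCaP. PALB2 read 6.18 in C4-2B and 6.31 in DU145, with 6.06 in PC3 and 5.46 in VCaP with DNAPK siRNA, against 6.32, 6.34, 5.81 and 5.75 in the same lines with non-targeting siRNA, with both VCaP arrays below all others in level.

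The response was also compared between line pairs, C4-2B with VCaP minus DU145 with PC3. The limma contrast called 0 of 31 members and 0 of 16796 genes (0% of all genes) at an adjusted p under 0.05, with no adjusted p below 0.991. Unadjusted, 1 member had a p under 0.05 (3.23%, against 3.7% of all genes), MUS81, with a difference between pairs of -0.87 (limma adjusted p = 0.991). In 3 members the pairs lay on opposite sides of 0 (9.68%, against 10.0% of all genes): FANCL, with 0.30 in C4-2B and -0.27 in DU145, with -0.16 in PC3 and 0.29 in VCaP, RAD51B and FANCM. RAD51B was in that group through a DU145 difference of 0.0079, which turned to -0.016 with median centring and -0.017 with cyclic loess. None of the 3 passed the test of that difference.

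Genes of neighbouring processes stood on the same side of 0 as the members in some lines and not in others. Mitosis genes had medians of -0.070 in C4-2B and 0.41 in DU145, with -0.34 in PC3 and -0.22 in VCaP. Above 0 lay 45 of 46 in DU145 (against 56.9% of all genes) and 1 of 46 in PC3 (against 55.5%). DNA replication and E2F target genes had medians of 0.15, 0.45, -0.20 and 0.11 in the same lines, with 49 of 50 above 0 in DU145 and 11 of 50 in PC3. The members' medians of 0.047, 0.35, -0.074 and -0.13 took the same sign as those of the replication genes in C4-2B, DU145 and PC3, and the sign of the mitosis genes in DU145, PC3 and VCaP. End joining genes other than PRKDC had 0.080, 0.16, 0.027 and 0.12, and with cyclic loess the PC3 value turned to -0.0085. The part of cell cycle phase in the members' differences was not tested.

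Members with an E2F match in a promoter window had a median of 0.42 in DU145 (17 genes) and those without one 0.31 (9 genes). Past 0.5 in DU145 lay 7 of the 17 and 1 of the 9, SLX4, against 5.89% of all genes. The 4 genes printed above are among the 7 by choice, because they were picked for the highest DU145 differences. RPA2, also past 0.5 in DU145, had no promoter window and is in neither group. In PC3 the medians were -0.15 with a match and 0.13 without. In VCaP they were -0.14 and -0.13, and in C4-2B 0.11 and -0.044. These are descriptions of 26 genes, which are not replicates of a condition, and are no test.

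**Figure D4:**
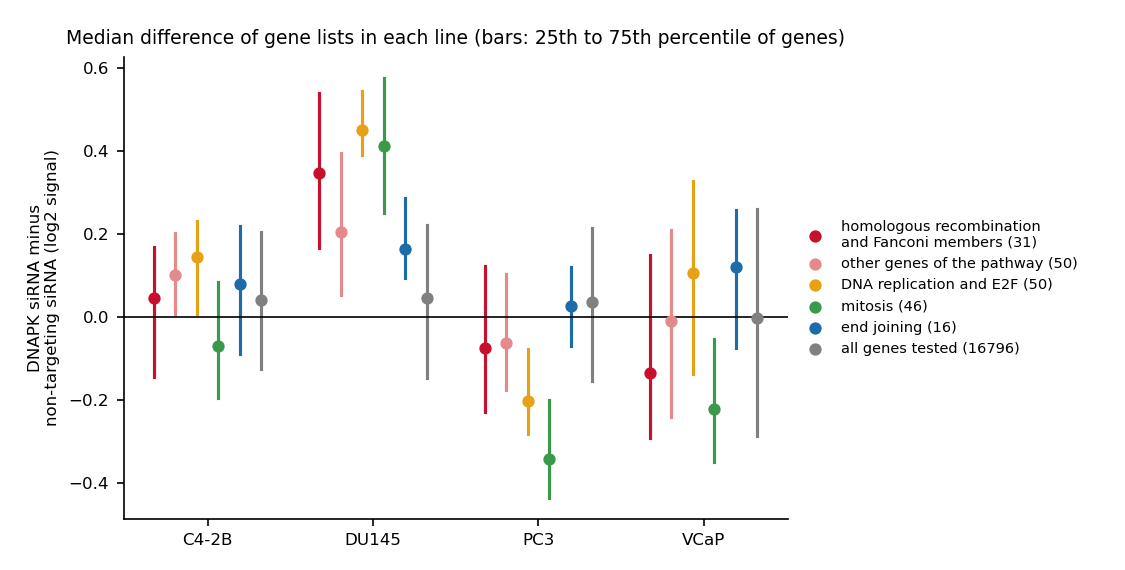
Median DNAPK siRNA minus non-targeting siRNA difference (vertical axis, log2 signal) of 6 gene lists in each line (horizontal axis); bars span the 25th to 75th percentile of the genes of a list, and the number of measured genes stands in the legend. In DU145 the members (0.35), replication genes (0.45) and mitosis genes (0.41) all lie above the median of all genes (0.045), and in PC3 the members (-0.074), replication genes (-0.20) and mitosis genes (-0.34) lie below 0.

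Other genes of recombination and the Fanconi pathway, a list of 56 with 50 measured, gave 0 calls in either direction over the 4 lines. At an unadjusted p under 0.05 were 2 of the 50, against 7.19% of all genes. Their mean difference was above 0 in 37 of 50 (against 56.4% of all genes), with a median of 0.076 against 0.027 over all genes. By line the medians were 0.10 in C4-2B and 0.21 in DU145, with -0.064 in PC3 and -0.0094 in VCaP. Past 0.5 in DU145 lay 8 of 50, against 5.89% of all genes. The largest mean differences were those of CENPX, a subunit of the histone-fold pair that works with FANCM (0.52 ± 0.58), and FIGNL1, a AAA ATPase (0.29 ± 0.20). Next came MMS22L (-0.28 ± 0.45) and TONSL (0.27 ± 0.35), which form a complex at stalled forks. All 4 had an adjusted p of at least 0.688 (limma). CENPX had 1.37 in VCaP, at 7.88 with DNAPK siRNA against 6.51 with non-targeting siRNA, and at most 0.38 in the other lines. MMS22L was at -0.66 in both PC3 and VCaP, where TONSL was at -0.014 and -0.032, while in DU145 MMS22L was at 0.22 and TONSL at 0.69.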

How the data were processed

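Total RNA (400 ng) was labelled with a whole-transcript kit, per the labels' protocols, on 1 array for each siRNA in each of 4 lines. Each deposited value is a log2 signal of a probe set, and per the submitters' processing notes the authors used oligo and RMA, whose quantile step makes array distributions alike. So a difference is relative to most transcripts. Array scanner files were not used here.

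Of 53617 probe sets, 23871 had 1 gene symbol, 1842 had several and 27904 were unnamed. Symbols were updated by Entrez identifier for 22569 probe sets (RefSeq, GRCh38.p14). Each of 22395 genes was read from its brightest probe set by the mean of 8 arrays, and 16796 genes lay above the 25th percentile of the mean.

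The members, lists and thresholds were chosen with earlier results of these data known. Responses were tested with limma 3.58.1 (lmFit and eBayes, R 4.3.3) in a 2-sided test blocked on the line, with Benjamini-Hochberg adjustment across the genes tested, a threshold of 0.05 and 3 residual degrees of freedom (7.55 with the prior). Levels were tested by an F-test over lines with treatment as a covariate, and responses of line pairs on the 4 differences. The fits were tested on simulated data. The line pairs the arrays by design. Arrays of a line correlated at 0.974 to 0.990 across genes, and arrays of different lines at 0.892 or less. After group means were removed, the values were 0.864 to 0.918 within a line and 0.0135 or less between lines. Removing group means lowers the correlation between lines by construction. The p-values of the response tests measure the spread of the within-line differences between lines. Those of the level tests measure the spread left between the arrays of a line, which differ in siRNA. An exact sign-flip test of 4 pairs cannot go below 0.125. The number of arrays limits the precision.

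Values on all arrays are given for PRKDC, for the 3 highest and 3 lowest members of each line, for members of 1 sign in 4 lines, and for the 8 widest ranges of line means. From the other pathway list the 4 largest mean differences are named. Other members named were chosen after their values were seen. Alternatives were other scalings, filters, probe set means, an intensity trend, no block and leaving out each line. Some items are not reported here.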

Additional observations from a re-analysis of the deposited data

Results flagged for a closer look

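Among 93 sets of 4 values examined (each member's level with DNAPK siRNA, its level with non-targeting siRNA and its difference, over the 4 lines), 5 had 1 line far from the other 3 by Dixon's ratio, above its 95% critical value. Chance alone gives about 1 in 20 such sets. The RAD52 difference in VCaP was -0.66, with the nearest other line at 0.16. FANCC, a Fanconi core subunit, stood at 4.99 in PC3 with DNAPK siRNA, where the nearest line read 5.91, and at 5.07 in PC3 with non-targeting siRNA, where the nearest read 5.82. RPA1 stood at 8.10 in PC3 with DNAPK siRNA, against 8.83 in the nearest line. BLM stood at 7.51 in VCaP with non-targeting siRNA, against 6.28 in the nearest line. For FANCC the line that stood apart was the same with both siRNAs.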

How the results depend on the processing

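The count of members changed over the 4 lines was 0 under every alternative run (median centring, cyclic loess, no filter, a filter at the 50th percentile, the mean of probe sets, an intensity trend and each line left out). It was also 0 with no replicate block, the unpaired fit, where 0 members had an unadjusted p under 0.05. That unpaired fit had 63 of all genes at an unadjusted p under 0.05, against 1208 with the block. Of all genes tested, 0 were called at an adjusted p under 0.05 in each of these runs. The count of 0 is therefore not particular to the members. The members with a response that differed between line pairs numbered 0 under the scalings, filters, probe set and variance settings. The count of members whose level differed between lines was 20, and lay between 20 and 24 (the last of 30 members, with the filter at the 50th percentile) under the scalings, filters and variance settings. Of all genes, 62.6% were called in the main fit, 78.4% with that filter and 48% with no filter. Leaving out 1 line gave 12 to 19, with 12 without C4-2B and 13 without PC3, where fewer arrays and lines enter the test. The share of all genes called fell too, to 48.7% without C4-2B, 52% without DU145, 50% without PC3 and 55.9% without VCaP. The median member difference over the lines, 0.040, ran from -0.070 to 0.13 when 1 line was left out and was 0.0048 with cyclic loess. With a threshold of 1 in place of 0.5, the counts within lines were 0 in C4-2B, DU145, PC3 and VCaP in both directions. With cyclic loess, 1 member lay past 0.5 in PC3 and 7 in DU145 (against 4.88% of all genes), and the cause was not tested. The member medians in the 4 lines kept their sign under both scalings. Single cultures and 1 array per treatment limit every value within a line.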
